A study of Homo sapiens with 6 samples.

Results

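Messenger RNA levels of 9 textbook target genes of the tumour suppressor p53 (CDKN1A, MDM2, GDF15, TP53INP1, SESN1, FAS, BTG2, ZMAT3 and RRM2B) were examined in OE19 cells with and without inhibition of the microRNA miR-451a. The genes were chosen by name as p53 stress targets and not by a rule on their values, but with earlier results of these data known. All 9 were among the 13345 genes of the table. OE19 is a cell line derived from an oesophageal adenocarcinoma (OAC). Cells were transfected with a miRCURY LNA Power inhibitor against miR-451a or with Negative Control A of the same chemistry, and their polyadenylated RNA was sequenced, giving 3 miR-451a inhibitor samples and 3 negative control samples from 3 independent transfection experiments. The comparison asked which messenger RNAs differed once miR-451a had been inhibited in a radioresistant line.

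All 6 samples came from 1 cell line, which limits the groups as a model of OAC. Cells were harvested 1 day after transfection for the experiments that followed. The labels describe irradiation and mock-irradiation, but the sources used here do not say that the sequenced cells had been irradiated.

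The p53 protein is a transcription factor that is kept at low levels in unstressed cells and is stabilised when DNA is damaged or growth is disturbed. It binds DNA as a tetramer, at a response element made of a pair of half-sites, and raises the transcription of genes that halt the cell cycle, repair DNA, limit oxidative stress or trigger cell death. One of its targets, MDM2, encodes the ubiquitin ligase that marks p53 for degradation, so that the response limits itself. Several of these genes also answer to p53-independent stress signals.

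Across the whole table no gene was called between the groups and 1 sample stood apart. With 3 samples in each group this does not show that the groups were alike, and log2 differences ran from -2.81 to 3.08. With limma on log2(value + 1), 0 of the 12723 tested genes passed an adjusted p of 0.05 (0%), and 119 (0.935%) had an unadjusted p below it. On whole numbers recovered from the values, edgeR and DESeq2 also passed 0 genes after adjustment, with 163 and 250 genes at an unadjusted p below 0.05. Those whole numbers follow the authors' adjustment and are not reads, for which both tools are made. In 5.61% of the tested genes the 3 control values lay wholly above or wholly below the 3 inhibitor values. Inhibitor sample 3 lay outside the range of the other 5 samples in 70.4% of the tested genes, against 14.6% to 39.8% for each other sample, so values without it are given below where they differ. Whole numbers summed to between 14084387 and 18726440 per sample. The epithelial markers EPCAM, CDH1, ERBB2, KRT8, KRT18 and KRT19 were present in every sample, with a summed value of 139500 to 212300. Of 8 mesenchymal markers the table held 4, summed to 395 to 468. Of 7 blood cell markers the table held 1, LYZ, which is also expressed by gastrointestinal epithelium and had values of 17005 to 20095.

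Short stretches of the RefSeq promoter windows show letters that resemble the p53 response element beside 4 of the genes. The windows are 300 bases long, with the start of transcription near their 3′ end, on GRCh38.p14, and 7 of the 9 genes had at least 1 (15 windows in all). Each line below gives the best match in a window to a pair of adjacent p53 half-sites without a spacer, with the 20 matching bases in capitals, read 5′ to 3′ on the strand of the gene.
MDM2 (chr12:68808918-68808947, plus strand): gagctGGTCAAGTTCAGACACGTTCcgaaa
FAS (chr10:88991304-88991333, plus strand): ctcctGGACAAGCCCTGACAAGCCAagcca
SESN1 (chr6:109009013-109009042, minus strand): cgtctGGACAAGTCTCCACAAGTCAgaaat
GDF15 (chr19:18386186-18386205, plus strand): AGCCATGCCCGGGCAAGAAC

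The MDM2 and FAS stretches each differed from the p53 consensus at 2 of the 20 positions, and those of SESN1 and GDF15 each at 3. The consensus is its own reverse complement, so that both strands were searched together, and the limit of 3 mismatches was chosen after the windows had been read. Relative to the start of transcription of its window, the MDM2 match began 94 bases upstream in one window and 101 bases upstream in another that overlaps it, the FAS match 122 bases upstream, the SESN1 match 49 bases upstream and the GDF15 match 28 bases downstream. Of all 35116 windows, 5.2% held such a match, and of the 14166 windows of tested genes 4.26% did, beside 5 of the 15 windows here. Counted by gene, 1745 of 27305 genes and 560 of 9724 tested genes with a window had a match, beside 4 of the 7 here. A single half-site without any mismatch occurred in 2 of the 15 windows, those of SESN1 and FAS shown above, and in 6.63% of all windows. The windows of CDKN1A, BTG2 and ZMAT3 held neither, which says only that these letters are not in those windows.

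CDKN1A (ENSG00000124762.13, chr6:36676463-36687332) encodes p21, the inhibitor of cyclin-dependent kinases that halts the cell cycle downstream of p53. Its normalised values were 1753, 1436 and 1495 in negative control samples 1, 2 and 3, and 1538, 1438 and 1957 in inhibitor samples 1, 2 and 3. The highest value belonged to inhibitor sample 3 and the lowest to negative control 2, inhibitor sample 2 was nearly level with the latter, and the groups overlapped. In bulk RNA, fewer expressing cells and less RNA per cell cannot be told apart. The mean was 1561 ± 169 (SD, n = 3) in controls and 1645 ± 276 (SD, n = 3) with the inhibitor. The log2 difference was 0.07 ± 0.16 (SE), with a 95% interval of -0.30 to 0.44 and a limma adjusted p of 0.929. Without inhibitor sample 3 the difference turned to -0.06. On a linear scale that interval runs from 0.811-fold to 1.35-fold. CDKN1A had the highest level of the 9 genes on this length-adjusted scale, between percentiles 83.3 and 88.8 of the table in each sample.

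BTG2 (ENSG00000159388.5, chr1:203305519-203309602) encodes an antiproliferative protein that recruits the deadenylase complex to messenger RNA. Its values were 116, 238 and 291 in negative control samples 1 to 3, and 113, 220 and 145 in inhibitor samples 1 to 3. Experiment 1 gave the lowest value of both groups, the groups overlapped, and the spread among controls alone was 215 ± 90.1 (SD, n = 3). BTG2 was lower with the inhibitor in all 3 experiments, with log2 differences of -0.04, -0.12 and -0.999, the widest of them in experiment 3, where the control was the highest of the 6 samples. The limma estimate was -0.39 ± 0.39 (SE), with an interval of -1.30 to 0.53 and an adjusted p of 0.899. Without inhibitor sample 3 it was -0.35, but other single samples moved it further, to -0.78 without negative control 1, -0.64 without inhibitor sample 2, -0.16 without inhibitor sample 1 and -0.12 without negative control 3.

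MDM2 (ENSG00000135679.21, chr12:68808172-68850686), the negative regulator of p53, had values of 238, 272 and 324 in negative control samples 1 to 3. In inhibitor samples 1 to 3 the values were 278, 272 and 211. Experiment 2 gave nearly the same value in both groups, whereas the inhibitor sample was the higher one in experiment 1 and the lower one in experiment 3, by log2 differences of 0.22 and -0.62. The means were 278 ± 43.1 and 254 ± 37.2 (SD, n = 3 each), the log2 difference was -0.13 ± 0.19 (SE), its interval ran from -0.57 to 0.31 and the limma adjusted p was 0.900. Without inhibitor sample 3 the difference was -0.00, and without negative control 3 it was -0.02.

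**Figure D1:**
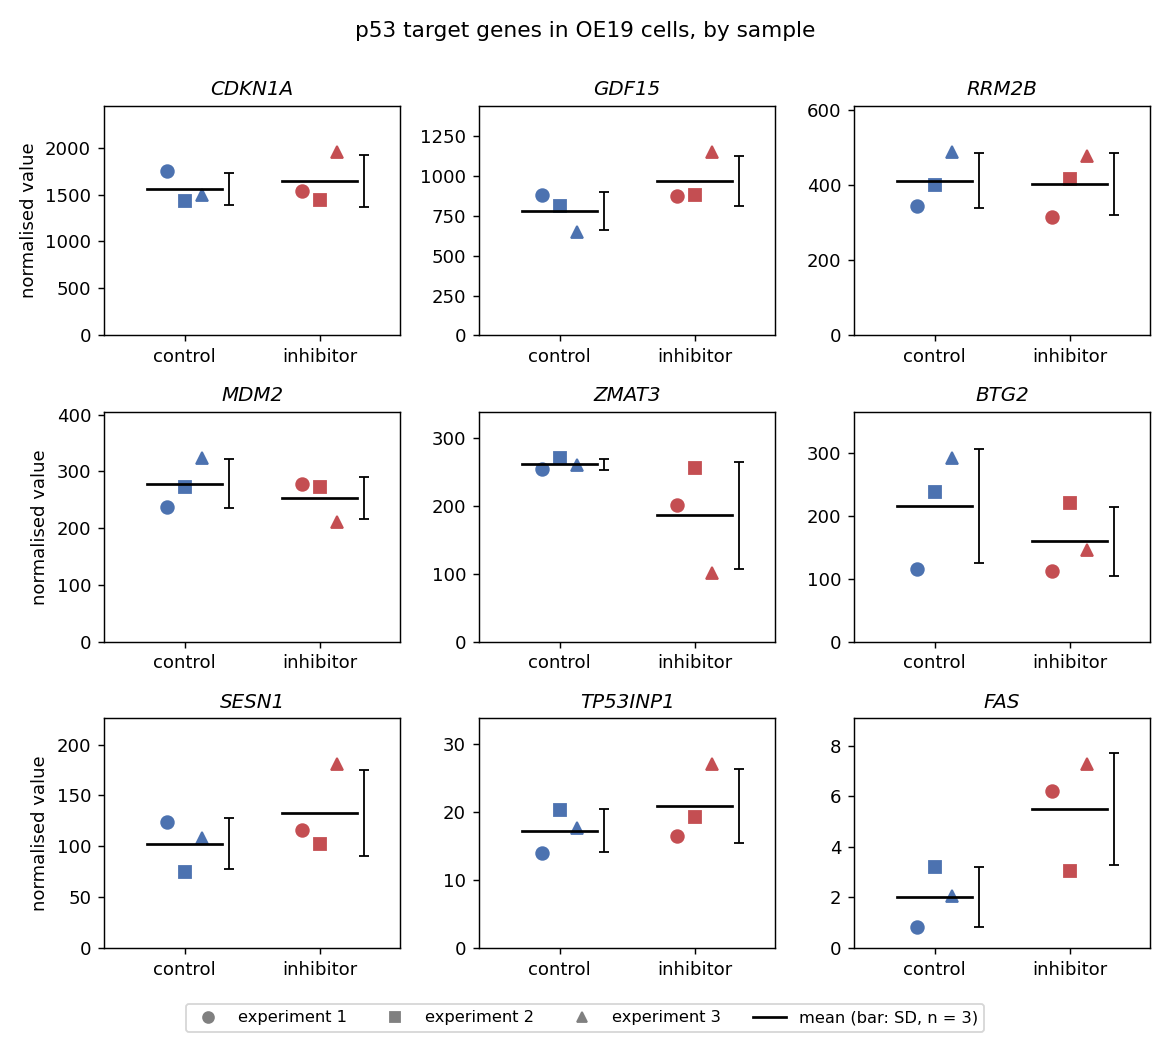
Normalised value (linear axis from 0, each panel with its own scale) of the 9 p53 target genes in 3 negative control and 3 miR-451a inhibitor samples. Circles, squares and triangles stand for experiments 1, 2 and 3, the horizontal line is the mean and the bar its SD (n = 3). In every panel the groups overlap, and the triangle of the inhibitor group is the highest of the 6 points for CDKN1A, GDF15, SESN1, TP53INP1 and FAS and the lowest for MDM2 and ZMAT3.

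Of the genes with a role in cell death, FAS was close to the limit of detection and TP53INP1 was low. FAS (ENSG00000026103.19, chr10:88964050-89017059) encodes the death receptor bound by Fas ligand. Its values were 0.82, 3.20 and 2.07 in negative control samples 1 to 3 and 6.19, 3.04 and 7.27 in inhibitor samples 1 to 3. As whole numbers these are 1, 3 and 2 against 6, 3 and 7, which are counts after the authors' adjustment and not reads. Negative control 2 was above inhibitor sample 2, so the groups overlapped. The sums of 6 and 16 gave a ratio of 2.75 per total, with an exact binomial 95% interval of 1.02 to 8.59. That interval treats the adjusted whole numbers as reads, which they are not, and leaves out the spread between samples. It therefore does not show a difference between the groups. FAS was under the filter of a mean value of 10 and was not tested there. Fitted with limma and no filter, it had a log2 difference of 1.12 ± 0.61 (SE), an interval of -0.31 to 2.55 and an adjusted p of 0.896.

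TP53INP1 (ENSG00000164938.13, chr8:94925972-94949378) encodes a nuclear and autophagy protein that promotes p53-dependent death. Its values were 13.9, 20.3 and 17.6 in negative control samples 1 to 3, and 16.5, 19.2 and 27.0 in inhibitor samples 1 to 3. Inhibitor sample 3 was again the highest, and the other 2 inhibitor samples lay inside the range of the controls. The log2 difference was 0.25 ± 0.38 (SE), with an interval of -0.64 to 1.14 and a limma adjusted p of 0.902, and it was 0.06 without inhibitor sample 3 and 0.11 without negative control 1.

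SESN1 and RRM2B act in metabolism and in the supply of deoxynucleotides. SESN1 (ENSG00000080546.13, chr6:108984309-109094846) encodes sestrin 1, which restrains mTORC1 and limits oxidative stress. Its values were 124, 74.8 and 109 in negative control samples 1 to 3, and 116, 102 and 181 in inhibitor samples 1 to 3. Negative control 2 was the lowest and inhibitor sample 3 the highest of the 6 samples, with the remaining 4 close together. The log2 difference of 0.36 ± 0.30 (SE) was the largest positive one among the 8 tested genes, but its interval ran from -0.33 to 1.05, the limma adjusted p was 0.899, and the difference was 0.12 without inhibitor sample 3 and 0.15 without negative control 2.

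RRM2B (ENSG00000048392.11, chr8:102204501-102238961) encodes the p53-inducible small subunit of ribonucleotide reductase, which makes deoxynucleotides for DNA repair. Its values were 346, 402 and 490 in negative control samples 1 to 3, and 315, 416 and 478 in inhibitor samples 1 to 3. In both groups experiment 1 gave the lowest value and experiment 3 the highest, so that RRM2B differed more between experiments than between groups. The means were 413 ± 72.5 and 403 ± 82.5 (SD, n = 3 each), and the log2 difference was -0.04 ± 0.21 (SE), with an interval of -0.52 to 0.44 and a limma adjusted p of 0.969. It was -0.17 without inhibitor sample 3, and it turned to 0.13 without inhibitor sample 1 and to 0.09 without negative control 3.

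GDF15 and ZMAT3 had the smallest unadjusted p-values of the 8 tested genes. GDF15 (ENSG00000130513.6, chr19:18386158-18389176) encodes a secreted cytokine of the TGF-beta superfamily that rises in many kinds of cell stress. Its values were 884, 810 and 649 in negative control samples 1 to 3, and 876, 879 and 1154 in inhibitor samples 1 to 3. Negative control 1 lay above inhibitor samples 1 and 2, so the groups overlapped by a narrow margin. The means were 781 ± 120 and 970 ± 159 (SD, n = 3 each), a log2 difference of 0.31 ± 0.17 (SE) with an interval of -0.09 to 0.72, an unadjusted p of 0.112 and a limma adjusted p of 0.899. By experiment the differences were -0.01, 0.12 and 0.83, and the estimate was 0.18 without inhibitor sample 3 and 0.19 without negative control 3.

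ZMAT3 (ENSG00000172667.10, chr3:179017223-179072513) encodes a zinc finger RNA-binding protein that regulates splicing and RNA stability and has tumour suppressor activity. Its values were 254, 270 and 259 in negative control samples 1 to 3, and 201, 256 and 101 in inhibitor samples 1 to 3. The controls lay within 261 ± 8.1 (SD, n = 3), whereas the inhibitor samples spread over 186 ± 78.8 (SD, n = 3). Inhibitor sample 2 fell just above the lowest control, so the groups overlapped. Lower values with the inhibitor were seen in all 3 experiments, with log2 differences of -0.34, -0.08 and -1.36. The limma estimate was -0.59 ± 0.33 (SE), with an interval of -1.36 to 0.18, an unadjusted p of 0.113 and an adjusted p of 0.899. Without inhibitor sample 3 the estimate was -0.20.

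None of the 8 tested genes passed the adjusted threshold (background 0%), none had an unadjusted p below 0.05 (background 0.935%), and none had groups that did not overlap (background 5.61%). They were split evenly in direction, with 4 higher and 4 lower in inhibitor treated cells, and their median log2 difference was 0.01, against -0.00 over all genes tested. Without inhibitor sample 3 the median was -0.03. The direction within experiments was the same in all 3 for 2 genes, BTG2 and ZMAT3, both lower. Over all 12723 genes tested, 3103 had the same direction in all 3 experiments.

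**Figure D2:**
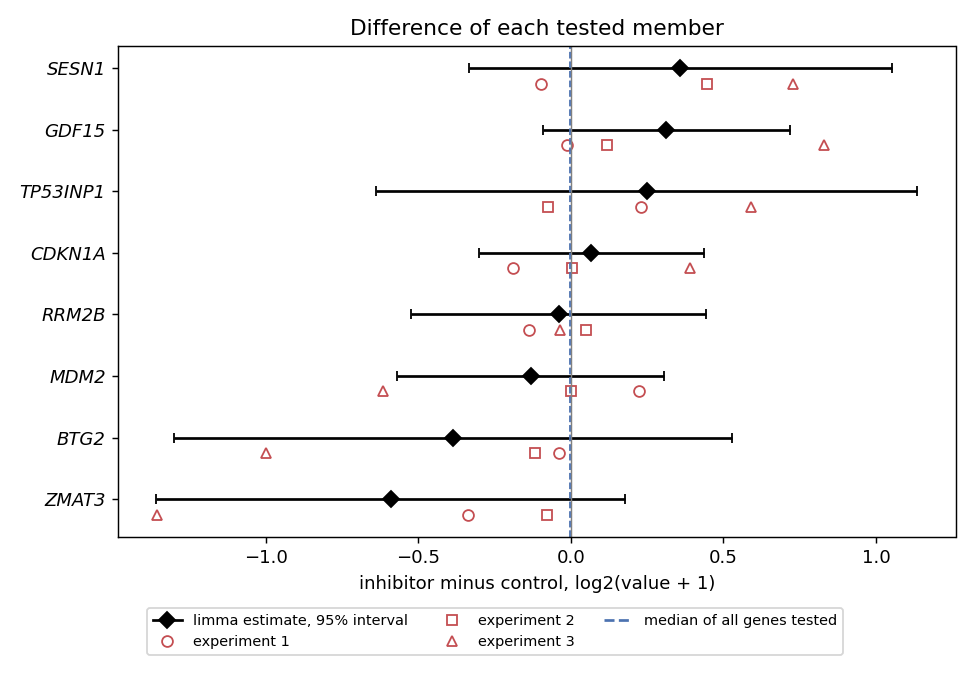
Inhibitor minus control difference of the 8 tested p53 target genes, on the log2(value + 1) scale. Diamonds are limma estimates with 95% intervals, open symbols the difference within each experiment, and the dashed line the median of all genes tested (-0.00). All 8 intervals contain 0, and experiment 3 (triangles) lies farthest from 0 for every gene except RRM2B.

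The position of inhibitor sample 3 was shared by the p53 targets and the table as a whole. Of the 8 tested genes, 6 were outside the range of the other 5 samples in inhibitor sample 3. CDKN1A, GDF15, TP53INP1 and SESN1 were above it, MDM2 and ZMAT3 were below it, and BTG2 and RRM2B were inside it. This count was not tested and stands beside 70.4% of all tested genes. The median absolute distance of the 8 genes from the control mean was 0.52 on the log2 scale in inhibitor sample 3, against 0.41 for all genes, and it was 0.07 in inhibitor sample 2, against 0.09 for all genes. In negative control 1 the corresponding values were 0.22 and 0.11, and in inhibitor sample 1 they were 0.19 and 0.21. Each control is itself part of the control mean, which makes the distances of controls smaller than those of inhibitor samples by construction.

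**Figure D3:**
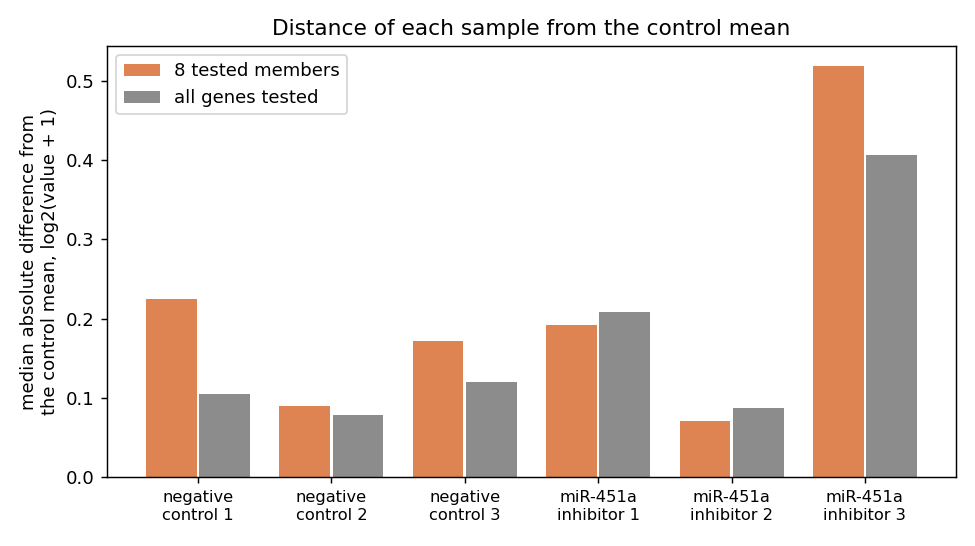
Median absolute difference from the control mean, on the log2(value + 1) scale, in each of the 6 samples, for the 8 tested p53 target genes (orange) and for all 12723 tested genes (grey). Inhibitor sample 3 has the tallest bars, 0.52 and 0.41, and inhibitor sample 2 has bars of 0.07 and 0.09. Each control is part of the control mean, so bars of controls are shortened by construction.

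The spread of the 9 genes over the 6 samples, taken without regard to group, differed from gene to gene. The highest value was 1.36 times the lowest for CDKN1A, 1.54 times for MDM2, 1.56 times for RRM2B, 1.78 times for GDF15 and 1.93 times for TP53INP1. Wider ranges were found for SESN1 at 2.42 times, BTG2 at 2.59 times and ZMAT3 at 2.68 times, and FAS, at single-digit whole numbers, had a range of 8.85 times. Compared with genes of a similar level, the SD of ZMAT3 was at percentile 90.0 and that of BTG2 at percentile 88.7, whereas that of MDM2 was at percentile 38.6 and that of CDKN1A at percentile 42.4. For ZMAT3 the spread lay in the inhibitor samples, and for BTG2 it lay in both groups.

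By level on the length-adjusted scale, the order was CDKN1A, GDF15, RRM2B, MDM2, ZMAT3, BTG2, SESN1, TP53INP1 and FAS. GDF15 lay between percentiles 63.8 and 79.2 of the table and RRM2B between 45.1 and 55.9, clear of the genes on either side. MDM2 (percentiles 36.0 to 44.6), ZMAT3 (24.0 to 40.9), BTG2 (26.3 to 42.1) and SESN1 (21.1 to 32.9) overlapped with their neighbours and could not be ordered beyond their spread. TP53INP1 stayed between percentiles 8.3 and 11.2 and FAS between 0.2 and 4.0.

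The profiles of CDKN1A and MDM2 over the 6 samples were set beside those of 11095 genes whose mean value reached 50. After centring on the log2 scale, the genes most like CDKN1A were SNX9, WBP1L and TAGLN2, with root mean square differences of 0.02, 0.03 and 0.03. SNX9, a sorting nexin of endocytosis, had values of 566, 460 and 467 in controls and 487, 452 and 616 with the inhibitor. Those most like MDM2 were NPDC1, SEMA4D and JAG2, each with a root mean square difference of 0.04. JAG2, a Notch ligand, had values of 379, 432 and 474 in controls and 424, 422 and 316 with the inhibitor. These genes were the nearest among 11095 over only 6 samples, so small distances follow from the selection. Shared regulation was not tested.

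Relatives and regulators of p53 were the first of 5 lists of related genes. Of the 14 tested genes of the list, 7 were higher and 7 lower, 0 passed the test, and the median was -0.01 (0.07 without inhibitor sample 3). The smallest unadjusted p-values belonged to CDKN2A, which encodes the MDM2 inhibitor p14ARF as well as p16INK4a, at a log2 difference of 0.61, and to RPL11 and RPL5, ribosomal proteins that bind MDM2, at 0.26 and 0.32. CDKN2A had values of 250, 216 and 170 in controls and 286, 195 and 591 with the inhibitor, so that inhibitor sample 3 alone lay outside the range of the other 5 by more than their own spread. The kinases ATM and ATR, which signal DNA damage to p53, had differences of -0.32 and -0.31, with limma adjusted p-values of 0.899. By experiment these were -0.30, 0.04 and -0.70 for ATM, and 0.05, 0.07 and -1.06 for ATR. The ATR difference thus lay in inhibitor sample 3, at 516 against 968 to 1090 in the other samples.

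From a list of further p53 targets the table held 27, all tested, whereas EDA2R, PHLDA3, SPATA18 and XIRP1 were not found in it. The 27 were likewise split, with 14 higher and 13 lower, 0 passed and a median of 0.01 (-0.06 without inhibitor sample 3). TP53I3, a quinone oxidoreductase, was the 1 gene of the list whose groups did not overlap. Its values were 583, 539 and 574 in controls and 509, 512 and 445 with the inhibitor, a log2 difference of -0.21 ± 0.12 (SE) with a limma adjusted p of 0.899. That 1 of 27 stands beside 5.61% of all genes tested. DRAM1, an autophagy regulator, had a difference of -1.02 and FDXR, a mitochondrial ferredoxin reductase, one of 0.21, and neither passed. DRAM1 had values of 243, 313 and 504 in controls and 224, 357 and 56.0 with the inhibitor, so that its difference lay mainly in inhibitor sample 3.

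Genes of DNA replication and mitosis that fall when p21 is induced differed in direction between experiments. Of 18 tested, 15 were higher with the inhibitor in experiment 1, 1 in experiment 2 and 13 in experiment 3. None was higher in all 3, and CCNE2, cyclin E2, and E2F1, a transcription factor of S phase entry, were lower in all 3. E2F1 differed by only -0.09 and -0.03 in experiments 1 and 2. Over all 12723 genes tested, 1547 were higher and 1556 lower in all 3 experiments. By the limma estimate 13 of the 18 were higher and 5 lower, against 49.4% higher over all genes tested. None of the 18 passed, and their median was 0.29, or 0.11 without inhibitor sample 3. CCNB1, the mitotic cyclin B1, had values of 958, 1302 and 1016 in controls and 1358, 1141 and 1972 with the inhibitor. BUB1, a spindle checkpoint kinase, and CDC25C, the phosphatase that activates the mitotic kinase CDK1, had log2 differences of 0.67 and 0.52. The limma adjusted p-value was 0.899 for each. By experiment the differences were 0.36, -0.23 and 1.89 for BUB1, and 0.45, -0.26 and 1.36 for CDC25C. In inhibitor sample 3, 15 of the 18 were outside the range of the other 5 samples, a count that was not tested and stands beside 70.4% of all tested genes. TOP2A, a DNA topoisomerase, was at 22392 against 4695 to 11121 and E2F1 at 759 against 2234 to 2767.

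Close relatives of the members, such as other sestrins, ribonucleotide reductase subunits and death receptors, numbered 14, of which 10 were higher and 4 lower. None passed, and the median was 0.16, or 0.01 without inhibitor sample 3. The smallest unadjusted p-values were those of TP53INP2, the paralogue of TP53INP1, at a log2 difference of 0.47, of CDKN1C, which encodes the p21 relative p57, at 0.53, and of TNFRSF10A, a receptor for the death ligand TRAIL, at -0.21. CDKN1C had values of 516, 366 and 341 in controls and 506, 336 and 1137 with the inhibitor. By experiment the differences of TP53INP2 were -0.30, 0.16 and 1.55. RRM1 and RRM2, which encode the large subunit and the S phase small subunit of ribonucleotide reductase, had differences of 0.21 and 0.22. Neither passed, and their intervals, -0.22 to 0.65 and -0.36 to 0.79, overlapped that of RRM2B, which had a difference of -0.04. By experiment the differences were 0.13, -0.20 and 0.72 for RRM1, and 0.12, -0.18 and 0.71 for RRM2.

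GDF15 is also induced by the integrated stress response, in which ATF4 and its partners raise genes of amino acid supply and stress recovery. All 8 tested genes of this response were higher with the inhibitor by the limma estimate, 0 passed, and the median was 0.31. In experiments 1 and 2 the response was split, with 4 genes higher and 4 lower each. Without inhibitor sample 3 that median was 0.01. In inhibitor sample 3 all 8 were outside the range of the other samples, beside 70.4% of all tested genes. ATF3, a stress-induced transcription factor, had values of 270, 171 and 159 in controls and 285, 173 and 619 with the inhibitor. ASNS, asparagine synthetase, and PPP1R15A, which restores translation after stress, had log2 differences of 0.64 and 0.40, with limma adjusted p-values of 0.899 each. By experiment these were 0.51, -0.23 and 1.63 for ASNS, and -0.03, -0.22 and 1.45 for PPP1R15A. SESN2, TNFRSF10B and MDM4 each belong to more than 1 of these lists, so the lists are not independent of each other.

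**Figure D4:**
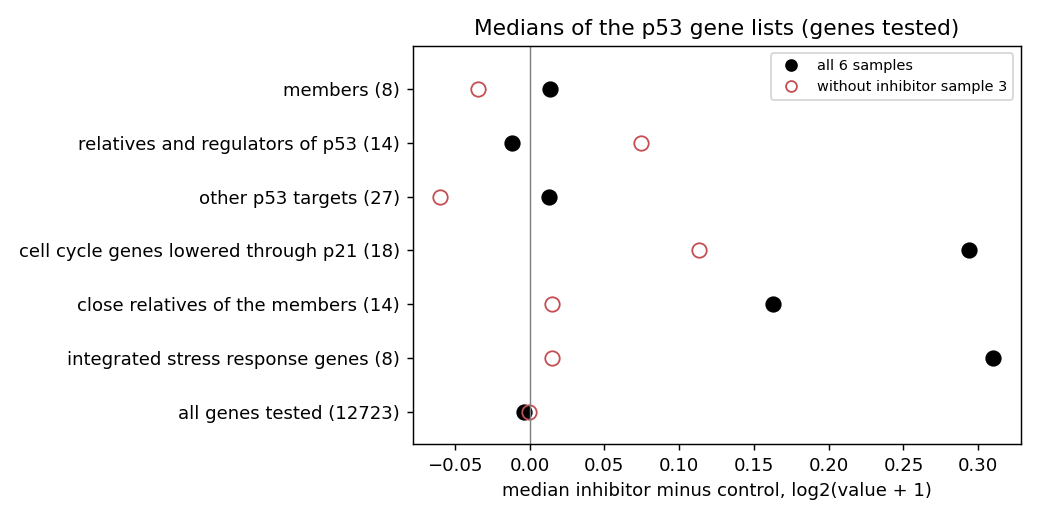
Median inhibitor minus control difference, on the log2(value + 1) scale, of the members, the 5 lists of related genes and all genes tested, with the number of genes tested in brackets. Filled points use all 6 samples and open points leave out inhibitor sample 3. The 3 lists with medians of 0.16 to 0.31 lie at 0.01 to 0.11 without it.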

How the data were processed

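One table of the 3 negative control and 3 miR-451a inhibitor samples was analysed, and groups were taken from the sample titles. The study's methods and the processing notes name cutadapt 1.8 for trimming, FastQC 0.11.8 for quality and STAR 2.7.0f for alignment (GRCh38). Gene counts were then corrected by the authors for GC content and length (EDASeq) and scaled between samples (DESeq2), so that the deposited table holds a normalised signal, not raw counts. How reads were counted, and on which annotation, is not given in the sources consulted. Divided by its smallest value above 0, each column gave 100% whole numbers within 1e-06. Values were shared between genes: in each sample 15 genes had the highest value, 5 to 6 genes shared that of CDKN1A and 45 to 105 that of FAS.

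The 12723 genes whose mean value reached 10 were tested two-sided on log2(value + 1) in limma 3.58.1 (R 4.3.3), with a trended eBayes fit, no block and Benjamini-Hochberg adjusted p-values. This scale understates changes of low genes. The study names a Mann-Whitney U test, and its exact form, run here as an alternative, cannot go below 0.1 with 3 against 3 samples. The experiment numbers in the headers and design pair the samples. Same-numbered deviations from the group means correlated at 0.21, 0.15 and -0.00 across genes. Values for different numbers are not given, so these alone do not decide whether pairing matters. A replicate block was an alternative, as were TMM and quantile scaling, pseudocounts of 0.5 and 10, other filters and sample weights. Further alternatives were edgeR 4.0.16 and DESeq2 1.42.0 on the whole numbers, and leaving out each sample. The pipeline was also run on simulated data in which no sample stood apart, so that run does not speak to inhibitor sample 3.

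The members and lists were chosen with earlier results of these data known. Named genes were the 9 members, list members that the text counts, up to 3 of each list with the smallest unadjusted p, and the 3 genes most like CDKN1A and MDM2 in profile. ATM, ATR, RRM1, RRM2, TOP2A, CCNE2 and E2F1 were named after their values were seen. Coordinates and promoter windows are RefSeq, GRCh38.p14, matched by symbol. A related gene and a marker are not reported here.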

Additional observations from a re-analysis of the deposited data

How the results depend on the processing

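No member and no other gene passed an adjusted p of 0.05 under any of the alternatives run, among which the smallest adjusted p of a member was 0.468 (ZMAT3, without inhibitor sample 2). Over 135 recomputed member differences, 130 kept their direction and 5 did not. With sample weights MDM2 was at 0.0004038 and TP53INP1 at -0.0159. Leaving out each sample in turn, CDKN1A ranged from -0.0642 to 0.158 and was negative without inhibitor sample 3, and RRM2B ranged from -0.174 to 0.127 and was positive without negative control 3 or inhibitor sample 1. The number of members at an unadjusted p below 0.05 ranged from 0 to 1 when samples were left out. It was BTG2 without negative control 1 (-0.78, limma adjusted p = 0.938) and ZMAT3 without inhibitor sample 2 (-0.87, limma adjusted p = 0.468), where 1360 of all genes were also below it. The median of the members, 0.01, ranged from -0.03 to 0.12 with samples left out and was -0.01 with sample weights and -0.04 for the 7 members with a mean of at least 50. With the replicate block the median stayed at 0.01, ZMAT3 had a limma p of 0.091, and no call changed. With DESeq2, 250 genes were at an unadjusted p below 0.05 against 119 with limma, and with sample weights 315 were. FAS, at whole numbers of 1 to 7, was at the limit of depth. The cause of these changes was not tested.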
